A study of Mus musculus with 8 samples.

Results

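The genes examined were 8 genes of iron storage and transport: Fth1 and Ftl1 (the heavy and light chains of ferritin), the metal transporters Slc11a1 and Slc11a2, the iron exporter Slc40a1, the iron sensors Ireb2 and Aco1, and Ncoa4, the receptor that takes ferritin to the lysosome. They were picked by symbol from the 24421 genes of the count table, and all 8 were among the 12254 genes with at least 1 count in at least 2 libraries, which were tested. RNA was sequenced from neutrophils isolated magnetically from the bone marrow of female C57BL/6 mice at 8 weeks of age. The mice were WT or Padi4 KO (Padi4-/-, lacking exon 1 of the gene for peptidylarginine deiminase 4 and with no source limiting the deletion to neutrophils). The cells were left unstimulated or given R848, an agonist of TLR7, at 1 µg/ml for 6 h. Every combination of genotype and treatment was sequenced as 2 libraries. Whether a pair stems from 1 mouse or more is not stated in the labels, so the p-values measure the spread between libraries, which may be technical. The titles of the unstimulated libraries give 0 h, whereas the protocol gives 6 h for all cells. If the titles hold, each R848 response below also contains 6 h in culture.

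Ferritin is a hollow shell of heavy and light chains in which a cell keeps iron in a harmless form. Its supply is governed after transcription: when iron is low, iron regulatory protein 1 (made from Aco1) and iron regulatory protein 2 (made from Ireb2) hold on to a hairpin, the iron-responsive element, in the 5′ UTR of the ferritin and Slc40a1 messages and block their translation, while the same proteins protect the message of the transferrin receptor, Tfrc, through hairpins in its 3′ UTR. Iron leaves the cell through ferroportin (Slc40a1), is released from endosomes by DMT1 (Slc11a2), and is pumped out of phagosomes by NRAMP1 (Slc11a1), a transporter known for limiting microbes inside phagocytes. The counts below measure message levels only, not translation or iron.

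The hairpins are shown because they are what the ferritin genes, Slc40a1 and Tfrc share in sequence. They were searched in the GENCODE transcripts of GRCm38, on the sense strand, as a C, 5 free bases, the loop CAGTGN and 5 bases that pair with those before the loop. N was A, C or T, and G-T pairs were allowed. The loop is in capitals.
Fth1, chr19:9982732-9982761, plus strand, 5′ UTR: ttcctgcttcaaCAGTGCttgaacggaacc
Ftl1, chr7:45459778-45459807, minus strand, 5′ UTR: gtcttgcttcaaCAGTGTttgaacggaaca
Slc40a1, chr1:45925464-45925493, minus strand, 5′ UTR: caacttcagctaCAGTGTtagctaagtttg
Tfrc, chr16:32631219-32631248, plus strand, 3′ UTR, the first of 4 matches: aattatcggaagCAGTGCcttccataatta
The 2 ferritin windows were identical at 26 of 30 bases. They differed by T1G, C4T, C18T and C30A, counted from 1 at the 5′ end with the Fth1 base first. A match in the 5′ UTR was found for 20 of 21760 coding genes (0.0919%), and in the 3′ UTR for 96 (0.441%). Slc11a1, Slc11a2, Ireb2, Aco1 and Ncoa4 had no match to these letters in either UTR. The search misses hairpins with a mismatch or bulge within the 5 pairs, so a gene without a match may still carry such a hairpin.

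The libraries held between 562446 and 1177972 counts on genes. CPM, the usual depth-normalised count, was scaled with TMM factors (trimmed mean of M-values), which ran from 0.80 to 1.25, and a gene is called changed at a Benjamini-Hochberg adjusted p below 0.1 in edgeR's quasi-likelihood test over all 12254 genes. Padi4 itself had 590 and 527 counts in unstimulated WT, 40 and 54 in unstimulated Padi4 KO, 166 and 234 in WT after R848, and 34 and 21 in Padi4 KO after R848. Markers of mature neutrophils summed to between 77900 and 108158 CPM in every library, here without TMM factors. Markers of erythroid cells summed to 82.7 to 85.3 in unstimulated WT and at most 13.1 in WT after R848, but to 851 in both unstimulated Padi4 KO libraries and 1002 to 1014 in Padi4 KO after R848. Of the 16 erythroid markers in the table, 6 hemoglobin genes were at 0 in all 8 libraries. Markers of monocytes and macrophages summed to 470 to 537 in unstimulated WT and 2940 to 3041 in WT after R848. In Padi4 KO they summed to 1003 to 1022 unstimulated and 2987 to 3065 after R848, and most of each R848 sum was Adgre1 and Csf1r. In bulk RNA of this kind, a change in the number of cells of a type and a change in RNA per cell cannot be told apart.

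To see how TLR7 stimulation altered iron genes, R848-treated and unstimulated neutrophils were compared in each genotype. In WT neutrophils Fth1 rose 22.8-fold, Slc11a1 6.34-fold and Ftl1 5.50-fold with R848, while Ncoa4, which delivers ferritin for breakdown, was 3.81-fold lower. The same 4 genes moved the same way in Padi4 KO neutrophils, by 16.7-fold, 6.79-fold and 5.23-fold and to 2.66-fold lower. In WT, 5 of the 8 genes changed, 4 higher and 1 lower, where 29.5% of all genes tested changed (13.5% higher and 16% lower). In Padi4 KO, 5 of the 8 changed, again 4 higher and 1 lower, where 35.1% of all genes changed (19.2% higher and 15.9% lower). All 8 members had at least 10 counts on average, and of all such genes 45.3% changed in WT and 50.9% in Padi4 KO. With the further rule of a change above 2-fold, which the study used for responses, 4 higher and 1 lower remained in WT, where 18% of all genes passed (7.18% higher and 10.8% lower). In Padi4 KO, 3 higher and 1 lower remained, where 16.9% of all genes passed (8.09% higher and 8.83% lower). In log2 units the members' median change was 1.07 for WT and 0.47 for Padi4 KO, while over all genes tested it was -0.17 and -0.03.

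**Figure D1:**
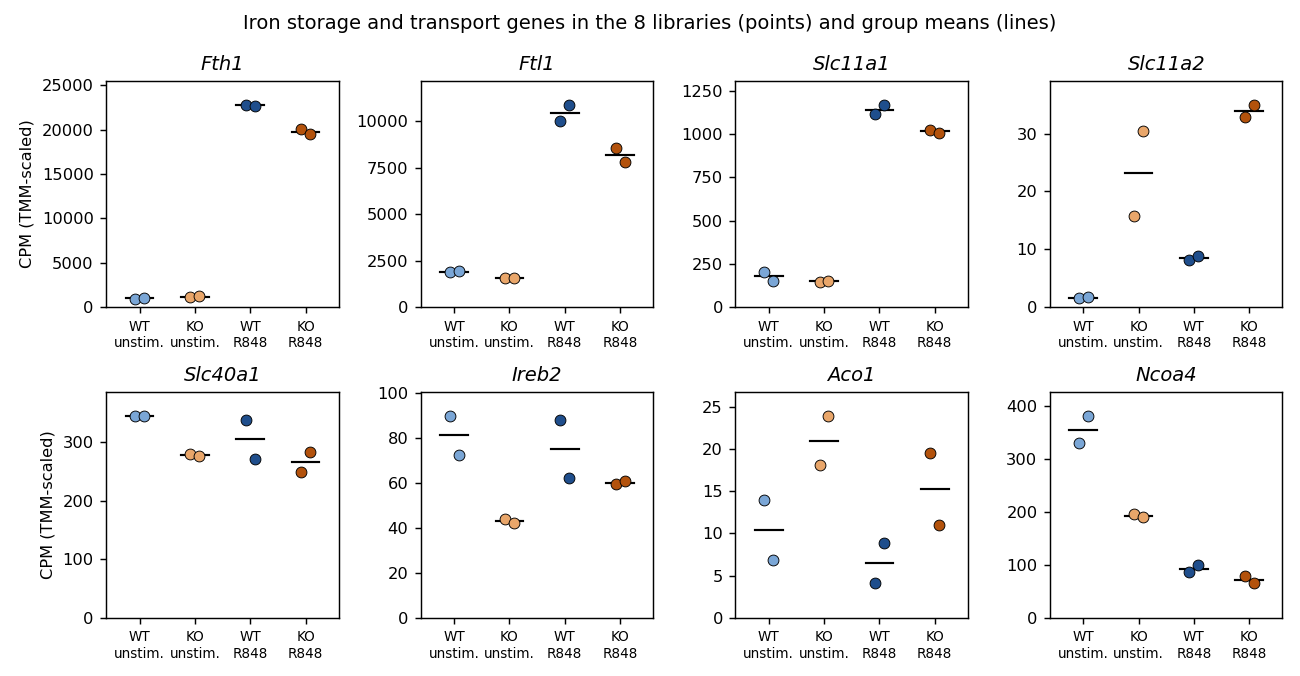
TMM-scaled CPM (y axes, each from 0) of the 8 iron genes in WT and Padi4 KO (KO) neutrophils, unstimulated or after R848; points are libraries and lines are the means of 2. Fth1, Ftl1 and Slc11a1 are high in all 4 R848 libraries, Ncoa4 is low in them, and Slc11a2 is higher in the 4 Padi4 KO libraries than in the 4 WT libraries.

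Fth1, the heavy chain, which carries the ferroxidase activity of ferritin, lies on chromosome 19 from 9980598 to 9985098. It had 620 and 599 counts in unstimulated WT and 11151 and 12839 in WT after R848. In CPM these were 959 and 1033 (mean 996 ± 52.8, SD, n = 2) against 22761 and 22720 (22741 ± 28.6, SD, n = 2). The groups were far apart, and the fold change was 22.8, or 4.51 on the log2 scale (SE 0.07), with an adjusted p in edgeR's quasi-likelihood test too small for R to represent. Among the 6912 genes with at least 10 counts on average, Fth1 ranked 56 from the top by log2 fold change in WT and 62 in Padi4 KO. In Padi4 KO, Fth1 had 1016 and 1678 counts unstimulated and 22585 and 21224 after R848, which were 1148 and 1217 CPM against 20063 and 19496 CPM. Again no library of one treatment reached the other, with a log2 fold change of 4.06 (SE 0.07), or 16.7-fold. The R848 levels lay in a narrow band, since the lowest of the 4 R848 libraries was 19496 CPM and the highest 22761 CPM.

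Ftl1, the light chain, which favours the mineral core inside the shell, lies on chromosome 7 from 45457944 to 45459884. It had 1871 and 1925 CPM in unstimulated WT, 10032 and 10857 CPM in WT after R848, 1573 and 1554 CPM in unstimulated Padi4 KO and 8542 and 7822 CPM in Padi4 KO after R848. The treated libraries stood above the unstimulated ones in both genotypes. The log2 fold change was 2.46 in WT (SE 0.07, adjusted p = 1.16e-276 in edgeR's quasi-likelihood test) and 2.39 in Padi4 KO (SE 0.07, adjusted p = 6.58e-274). Of the 919 stretches of 50 bases in its main transcript, 78.9% also occur in transcripts of other genes, mostly the pseudogenes Ftl1-ps1, Gm15590 and Ftl2-ps, so its level depends on how the counting treated shared reads. For Fth1 this share was 6.59%.

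The 2 chains did not rise alike, and the count of Fth1 passed that of Ftl1. Before stimulation, Fth1 had 0.512 and 0.537 counts for each count of Ftl1 in WT and 0.730 and 0.783 in Padi4 KO. After R848 the ratio was 2.27 and 2.09 in WT and 2.35 and 2.49 in Padi4 KO, so every treated library was above every untreated one. Per kilobase, the mean of Fth1 in unstimulated WT was 1072 CPM with the length of its main transcript and 639 CPM with the length of all its coding exons, both below the 1961 CPM of Ftl1. After R848 it was 24479 or 14596 CPM per kilobase by these lengths, both above the 10790 CPM of Ftl1. In Padi4 KO the order per kilobase was the same, with 1273 or 759 for Fth1 and 1615 for Ftl1 unstimulated, and 21292 or 12696 against 8453 after R848. The stretches shared with other genes were 78.9% for Ftl1 and 6.59% for Fth1. If shared reads were dropped in counting, Ftl1 was undercounted more, so these counts do not settle which message was more abundant within a group.

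The ferritin messages became a large part of the library. Fth1 and Ftl1 together took 0.286% and 0.305% of gene counts in unstimulated WT and 2.63% and 2.84% after R848. In Padi4 KO they took 0.336% and 0.347% unstimulated and 2.73% and 2.62% after R848. The treated libraries of the 2 genotypes overlapped in this share.

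**Figure D2:**
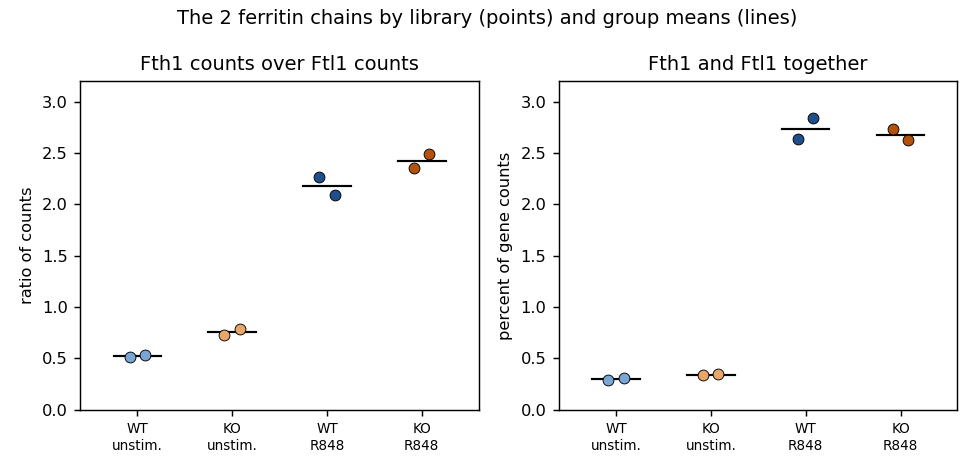
Counts of Fth1 over counts of Ftl1 (left, a ratio) and the percent of all gene counts taken by both (right), in each library (points) with the mean of 2 (lines). The ratio lies between 0.512 and 0.783 in the unstimulated libraries and between 2.09 and 2.49 after R848, and the share lies between 0.286% and 0.347% and between 2.62% and 2.84%. The level of the ratio depends on how reads shared between Ftl1 and its pseudogenes were counted.

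Slc11a1, the phagosomal metal pump, lies on chromosome 1 from 74375195 to 74386062. It had 206 and 152 CPM in unstimulated WT and 1114 and 1168 CPM after R848, and 147 and 152 CPM in unstimulated Padi4 KO and 1023 and 1010 CPM after R848. The lowest treated library was thus several times the highest untreated one. The log2 fold change was 2.67 in WT (SE 0.11, adjusted p = 2.58e-129, edgeR's quasi-likelihood test) and 2.76 in Padi4 KO (SE 0.10, adjusted p = 6.37e-178). The summed markers of monocytes and macrophages were higher in the R848 libraries, as Slc11a1 and ferritin were, but the list did not move one way. Of 14 such genes tested, 4 rose and 2 fell in WT, and 5 rose and 4 fell in Padi4 KO. Their median on the log2 scale was -1.33 in WT and -1.68 in Padi4 KO. The macrophage antigen gene Adgre1 went from 38.0 and 40.2 CPM to 2357 and 2531 CPM in WT, and Csf1r from 125 and 162 to 878 and 1007. The monocyte genes F13a1 and Ccr2 fell in WT, from means of 177 and 57.2 CPM to 53.7 and 27.6 CPM. Of the tissue macrophage genes, C1qa, Mrc1 and Siglec1 had means of at most 3.36 CPM in every group, while the mean of Vcam1 went from 43.2 to 120.5 CPM in WT and from 13.6 to 48.3 CPM in Padi4 KO, and that of Spic was 12.7 CPM in Padi4 KO after R848 and 0 before. The part of these cells in the ferritin and Slc11a1 responses was not tested.

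Slc11a2, the endosomal and plasma membrane iron importer, lies on chromosome 15 from 100387898 to 100425072 and was counted rarely. It had 1 and 1 counts in unstimulated WT, 4 and 5 in WT after R848, 14 and 42 in unstimulated Padi4 KO and 37 and 38 in Padi4 KO after R848. All Padi4 KO libraries were above all WT libraries in counts and in CPM. In WT the call of a rise rested on these few counts (adjusted p = 0.0635, edgeR's quasi-likelihood test). By library totals the ratio after R848 was 4.23 with a 95% interval for counting error alone of 0.876 to 40.3, which includes no change. The rise was not called with DESeq2 (log2 fold change 2.46, adjusted p = 0.163) or without unstimulated WT replicate 1 (adjusted p = 0.219), unstimulated WT replicate 2 (0.166) or R848 WT replicate 2 (0.163). In Padi4 KO the log2 fold change was 0.46 (SE 0.27, adjusted p = 0.203), and the unstimulated libraries were at 15.8 and 30.5 CPM, of which only the second lay close to the treated ones at 32.9 and 34.9 CPM. Without TMM factors the groups overlapped, and the ratio by library totals was 1.05 (counting interval 0.735 to 1.52). Without unstimulated Padi4 KO replicate 2 that change was 1.09 and called (adjusted p = 0.0283).

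Slc40a1, the exporter, lies on chromosome 1 from 45908068 to 45926523 and showed no called response in either genotype. It had 345 and 345 CPM in unstimulated WT, 339 and 271 CPM in WT after R848, 280 and 276 CPM in unstimulated Padi4 KO and 249 and 283 CPM in Padi4 KO after R848. Treated and untreated libraries overlapped in Padi4 KO, and in WT one treated library was close to the untreated pair. The log2 fold change was -0.19 in WT (95% interval -0.42 to 0.05, adjusted p = 0.291) and -0.07 in Padi4 KO (-0.27 to 0.14, adjusted p = 0.688). Scaled by library size alone it was called lower in both, at -0.49 and -0.44, where the median gene with at least 10 counts was itself at -0.38 and -0.30. With the filterByExpr filter it was called lower in WT (-0.24, adjusted p = 0.0991). In Padi4 KO it was also called lower without WT R848 replicate 1 (-0.20, adjusted p = 0.0825) or replicate 2 (-0.19, adjusted p = 0.0991).

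The iron sensors gave 1 called response, that of Ireb2 in Padi4 KO. Ireb2, on chromosome 9 from 54863789 to 54912530, had 89.7 and 72.5 CPM in unstimulated WT and 87.8 and 61.9 CPM after R848, which overlapped (log2 fold change -0.14, SE 0.22, adjusted p = 0.720). In Padi4 KO it had 44.1 and 42.1 CPM unstimulated and 59.5 and 60.6 CPM after R848, a log2 fold change of 0.49 (SE 0.20, adjusted p = 0.0480 in edgeR's quasi-likelihood test). That rise was lost with DESeq2 (0.40, adjusted p = 0.472), with relative log expression (RLE) factors (adjusted p = 0.115), with library size alone (adjusted p = 0.707) and without any one of 5 libraries, among them both treated Padi4 KO libraries (adjusted p = 0.324 and 0.349). Aco1, on chromosome 4 from 40143081 to 40198338, had 9 and 4 counts in unstimulated WT, 2 and 5 in WT after R848, 16 and 33 in unstimulated Padi4 KO and 22 and 12 in Padi4 KO after R848. These counts overlapped between treatments, and the log2 fold changes of -0.66 (SE 0.67, adjusted p = 0.535) and -0.49 (SE 0.33, adjusted p = 0.295) were not called. The second was called with library size alone (-0.86, adjusted p = 0.0289) and without Padi4 KO R848 replicate 1 (-1.10, adjusted p = 0.0636).

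Ncoa4 was the member that fell. It lies on chromosome 14 from 32159865 to 32179855 and had 329 and 381 CPM in unstimulated WT against 85.7 and 99.1 CPM after R848. In Padi4 KO it had 195 and 190 CPM against 78.2 and 66.1 CPM. No treated library overlapped an untreated one in either genotype. On the log2 scale Ncoa4 fell by 1.93 in WT (SE 0.16, adjusted p = 1.44e-33, edgeR's quasi-likelihood test) and by 1.41 in Padi4 KO (SE 0.14, adjusted p = 1.16e-22). Of the 50-base stretches of its main transcript, 52.5% also occur in the transcript of the pseudogene Gm6768, so its level, like that of Ftl1, depends on the treatment of shared reads.

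**Figure D3:**
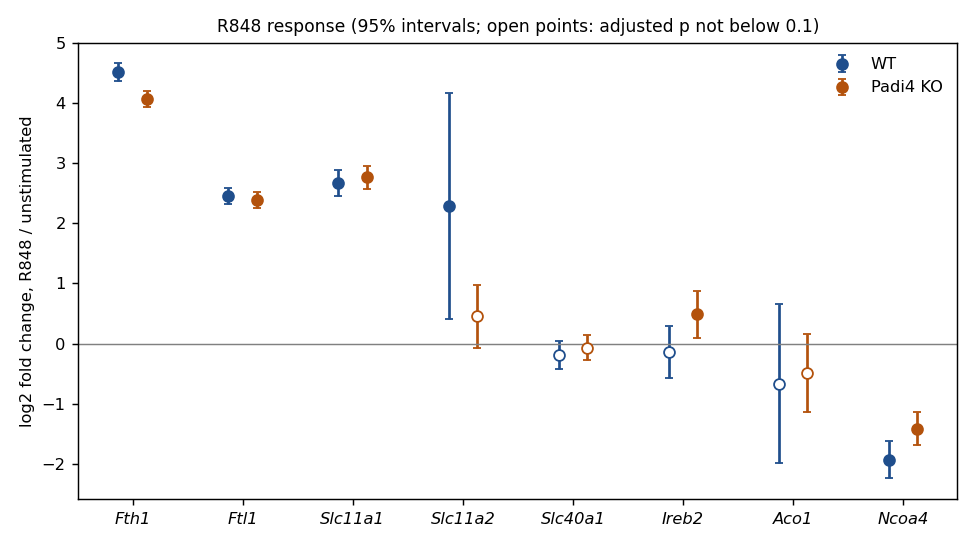
Log2 fold change with R848 (y axis) of the 8 iron genes in WT (blue) and Padi4 KO (orange), with 95% intervals from edgeR's quasi-likelihood fit; filled points have an adjusted p below 0.1. Fth1 rises most, by 4.51 and 4.06, Ncoa4 falls by 1.93 and 1.41, and the interval of Slc11a2 in WT is the widest among the called points.

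The question of the design was whether the response differs in neutrophils that lack Padi4, and for Fth1 the difference was called. The fold change of Fth1 was 0.731 times as large in Padi4 KO as in WT, a log2 difference of -0.45 (SE 0.09, 95% interval -0.64 to -0.27, adjusted p = 0.000220 in edgeR's quasi-likelihood test). It was the only 1 of the 8 genes with a called difference, where 8% of all genes with at least 10 counts on average had one. Of all genes tested, 4.69% had one (3.44% higher and 1.26% lower in Padi4 KO). That balance turned under other settings: 73.2% of the calls were higher with TMM factors, but 40.7% with RLE factors, 28% with DESeq2 and 17.4% to 26.2% without any one R848 library. With DESeq2, the other filters, the other scalings, the replicate block, the stricter threshold and each library left out, the difference of Fth1 ranged from -0.73 to -0.40 and its adjusted p from 7.81e-16 to 0.0193. The difference joins a higher start, 1182 ± 48.5 CPM in unstimulated Padi4 KO against 996 ± 52.8 CPM in WT, to a lower end, 19780 ± 401 CPM against 22741 ± 28.6 CPM (SD, n = 2 each).

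For the other members the interval of the difference is the useful value. It ran from -0.25 to 0.11 for Ftl1 (adjusted p = 0.828), from -0.21 to 0.40 for Slc11a1 (0.877) and from -0.19 to 0.43 for Slc40a1 (0.837). It ran from 0.08 to 0.96 for Ncoa4 (0.228) and from 0.04 to 1.21 for Ireb2 (0.322), both of which missed the threshold over all genes. It was wide for Aco1, -1.27 to 1.62 (1.00), and for Slc11a2, -3.80 to 0.14 (0.432). The difference of Ftl1 was called without WT R848 replicate 1 (-0.40, adjusted p = 0.000116), WT R848 replicate 2 (-0.24, adjusted p = 0.0781) or Padi4 KO R848 replicate 1 (-0.37, adjusted p = 0.0653), in each case toward a smaller response in Padi4 KO.

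Unstimulated Padi4 KO and WT neutrophils were then compared to see what differed before TLR7 stimulation. Slc11a2 and Aco1 were higher in Padi4 KO, Ireb2 and Ncoa4 were lower, and the ferritin chains and Slc40a1 differed by between 0.25 and 0.31 on the log2 scale, Fth1 higher and the others lower. Of the 8 genes, 7 were called, 3 higher and 4 lower, where 24% of all genes tested were called (9.54% higher and 14.4% lower). Among all genes with at least 10 counts on average the share was 36.7%. With each library left out in turn, 4 to 6 of the 8 were called. The scaling of these libraries moved all genes. The median log2 fold change of genes with at least 10 counts was -0.16 with TMM factors, -0.11 with RLE factors or DESeq2, and 0.12 with library size alone. The share of called genes that were higher went with it, from 39.8% with TMM factors to 77.2% with library size alone. It was 55.2% to 57.3% without any one R848 library. After R848 the median was -0.00 with TMM, -0.10 with RLE factors or DESeq2 and 0.21 with library size alone, and the share of higher calls went from 54.6% with TMM to 81.8% with library size alone. It was below that of lower calls with DESeq2 (38.4%), with RLE factors (42.1%) and without any one R848 library (36.7% to 42.8%).

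Slc11a2 showed the widest gap. By library totals it was 18.5 times as high in unstimulated Padi4 KO as in WT (56 against 2 counts), with a 95% interval for counting error of 4.89 to 157. The adjusted p was 2.35e-07 in edgeR's quasi-likelihood test, and the call held in every alternative. After R848 the ratio was 4.61 (75 against 9 counts, interval 2.30 to 10.47, adjusted p = 0.000144). Erythroid markers were also higher in Padi4 KO, 9 of the 10 tested unstimulated and all 10 after R848. The sizes did not run alike. On the log2 scale Slc11a2 differed by 3.80 unstimulated and 1.97 after R848, and the median of these markers by 3.03 and 6.52. Among the markers, Slc4a1 differed by 3.62 and 6.17. The part of erythroid cells in the Slc11a2 difference was not tested.

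Ireb2 was lower in unstimulated Padi4 KO, with 44.1 and 42.1 CPM against 89.7 and 72.5 CPM, groups that did not overlap. The log2 fold change was -0.93 (SE 0.21, adjusted p = 0.000203, edgeR's quasi-likelihood test) and it was called in every alternative, from -1.06 to -0.64. Aco1 went the other way, with 18.1 and 23.9 CPM against 13.9 and 6.90 CPM and a log2 fold change of 1.02 (SE 0.44, adjusted p = 0.0862). The call of Aco1 was lost with DESeq2 (adjusted p = 0.436), without unstimulated WT replicate 2 (0.515) and without unstimulated Padi4 KO replicate 2 (0.423). Ncoa4 was lower in Padi4 KO, at 195 and 190 CPM against 329 and 381 CPM (log2 fold change -0.88, SE 0.12, adjusted p = 1.84e-12). Relative to the median gene, the log2 fold changes of Ireb2 and Ncoa4 were -0.76 and -0.72. Neutrophil markers were lower beside them, 9 of 10 mature markers (median -0.52) and 9 of 10 immature markers (median -0.77), and their part in these differences was not tested.

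The shift with TMM factors ran in the direction of the differences of Ftl1, Slc11a1 and Slc40a1 and against that of Fth1. Fth1 was higher in unstimulated Padi4 KO by 0.25 on the log2 scale (SE 0.07, adjusted p = 0.00425), and relative to the median gene by 0.41. That relative value hardly depends on the scaling, which shifts all genes by nearly the same amount, so it is no check of the call. The call was lost without unstimulated WT replicate 1 (0.20, adjusted p = 0.137) or unstimulated Padi4 KO replicate 2 (0.21, adjusted p = 0.106). Ftl1 was lower by 0.28 (adjusted p = 0.000591) with TMM factors but differed by 0.01 with library size alone (adjusted p = 0.979), and relative to the median gene it was at -0.12. It was also not called without either Padi4 KO R848 library (adjusted p = 0.184 each). Slc40a1 had a log2 fold change of -0.31 (adjusted p = 0.0265), or -0.15 relative to the median gene, and its call was lost with DESeq2 (adjusted p = 0.395), library size alone (0.935) and each library left out in turn (0.102 to 0.321). Slc11a1 had -0.27 (adjusted p = 0.162), and was called without unstimulated WT replicate 2 (-0.46, adjusted p = 0.0349).

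After R848, 3 of the 8 genes were called between the genotypes, 1 higher (Slc11a2) and 2 lower (Fth1 and Ftl1), where 17.3% of all genes tested were called (9.44% higher and 7.84% lower). Among all genes with at least 10 counts on average the share was 26.4%. Fth1 was at 20063 and 19496 CPM in Padi4 KO and 22761 and 22720 CPM in WT, a log2 fold change of -0.20 (SE 0.06, adjusted p = 0.00832, edgeR's quasi-likelihood test). Ftl1 was at 8542 and 7822 CPM against 10032 and 10857 CPM, a log2 fold change of -0.35 (SE 0.06, adjusted p = 5.38e-07). The libraries of the genotypes did not overlap for either chain with TMM factors. With library size alone both calls were lost, at 0.02 (adjusted p = 0.920) for Fth1 and -0.14 (adjusted p = 0.136) for Ftl1. Relative to the median gene the chains were at -0.20 and -0.35. A change of scaling shifts the median gene by nearly as much, so these relative values are no check of the calls. The other members were not called: Slc11a1 -0.17 (adjusted p = 0.170), Slc40a1 -0.19 (0.336), Ireb2 -0.30 (0.440), Ncoa4 -0.36 (0.245) and Aco1 1.19 (0.160), all on the log2 scale. With RLE factors, 6 of the 8 genes were called, with Slc11a1 (adjusted p = 0.00829), Slc40a1 (0.0770) and Ncoa4 (0.0948) added as lower. With library size alone Aco1 was called higher (1.40, adjusted p = 0.0686). Single libraries also decided these calls: Slc11a1 was called without WT R848 replicate 1 (adjusted p = 0.000753) or Padi4 KO R848 replicate 1 (0.0553). Ncoa4 was called without the same libraries (0.0807 and 0.0834), and Slc40a1 without WT R848 replicate 2 (0.0209) or Padi4 KO R848 replicate 2 (0.0700).

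**Figure D4:**
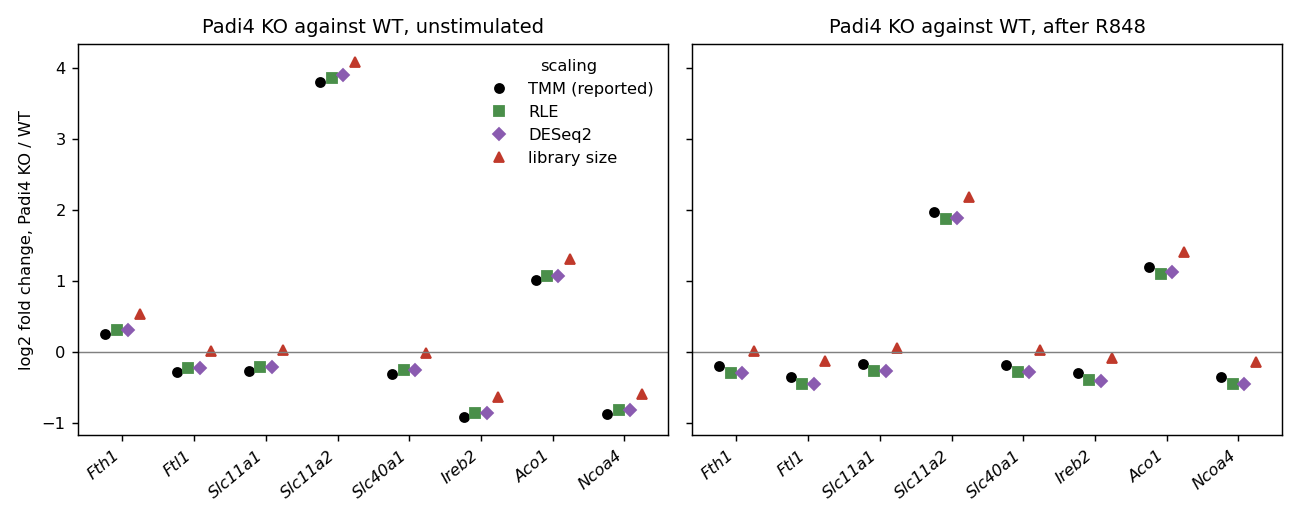
Log2 fold change of Padi4 KO over WT (y axis) for the 8 iron genes, unstimulated (left) and after R848 (right), with TMM factors (black), RLE factors (green), DESeq2 (purple) and library size alone (red). Library size alone raises all 8 genes, by enough to bring Ftl1 to 0.01 unstimulated and Fth1 to 0.02 after R848, while Slc11a2, Aco1, Ireb2 and Ncoa4 stay on their side of 0.

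A list of 68 other iron genes in the table, covering uptake, export, iron withholding, heme, and iron-sulfur clusters, gave the setting; 55 of them were tested. In WT 12 rose and 6 fell with R848, or 32.7% of the list, and in Padi4 KO 15 rose and 7 fell, or 40%. These shares stand beside 29.5% and 35.1% of all genes. Among genes with at least 10 counts on average they were 42.1% and 50% of the list, beside 45.3% and 50.9% of all genes. Over genes with more than 3 counts in each group compared, the median log2 fold change was 0.01 in WT (36 genes of the list) and 0.08 in Padi4 KO (47 genes), beside -0.08 and 0.01 over all such genes.

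Among genes of heme and hemoglobin iron, 4 of the 8 tested were higher and 1 lower in WT, and 5 were higher and 1 lower in Padi4 KO. Over all genes 13.5% were higher and 16% lower in WT, and 19.2% and 15.9% in Padi4 KO. The group holds heme breakdown enzymes and also Hp, Lrp1, Cd163 and Slc48a1, which bind or carry hemoglobin or heme. Hmox1, heme oxygenase 1, which frees iron from heme, went from 45 and 47 counts to 215 and 280 in WT and from 58 and 102 to 479 and 442 in Padi4 KO. Its log2 fold changes were 2.64 (SE 0.15) and 2.56 (SE 0.12). Blvrb, biliverdin reductase B, went from 7 and 5 counts to 41 and 50 in WT and from 57 and 70 to 213 and 191 in Padi4 KO, with log2 fold changes of 3.12 (SE 0.35) and 1.69 (SE 0.15). Both genes rose in each genotype by more than the spread of their libraries.

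The 2 iron withholding proteins of neutrophil granules moved apart. Lcn2, which binds bacterial siderophores, rose by 1.49 (SE 0.06) in WT and 1.65 (SE 0.06) in Padi4 KO on the log2 scale. Ltf, lactoferrin, fell by 0.73 (SE 0.06) and by 0.93 (SE 0.06). Markers of immature neutrophils were mostly lower beside it, 6 of 10 in WT (median log2 change -0.70) and 7 of 10 in Padi4 KO (median -0.91). In each genotype 1 of the 10 was called higher, Camp, whose mean went from 5582 to 7243 CPM in WT and from 3321 to 4725 CPM in Padi4 KO. The part of these markers in the fall of Ltf was not tested. Lcn2 and Ltf were both abundant, with at least 6592 counts of Lcn2 and 5225 counts of Ltf in each library. Fbxl5, which marks iron regulatory protein 2 for breakdown, rose by 0.90 (SE 0.10) in WT and 0.59 (SE 0.09) in Padi4 KO, while the message of its target, Ireb2, is described above.

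Iron uptake genes were mostly low in WT. Tfrc, the transferrin receptor that carries the 3′ hairpins shown above, had 24 and 10 counts in unstimulated WT and 22 and 8 after R848, and its log2 fold change was 0.04 (adjusted p = 0.999). In Padi4 KO it had 192 and 271 counts unstimulated and 288 and 273 after R848 (0.30, adjusted p = 0.0203, but not called with DESeq2, adjusted p = 0.848, or without any one of 5 libraries, adjusted p = 0.175 to 0.510). Steap4, a ferric reductase, went from 2 and 3 to 9 and 13 counts in WT and from 37 and 44 to 67 and 50 in Padi4 KO (log2 fold changes 2.31 and 0.56). The call in Padi4 KO was lost with DESeq2 (adjusted p = 0.580), with library size alone (0.537) and without any one of 4 libraries (0.103 to 0.652), and by library totals the ratio was 1.14 with a counting interval of 0.849 to 1.53. Slc39a14, a carrier of iron outside transferrin, had 0 and 0 counts in unstimulated WT and 2 and 2 after R848. In Padi4 KO it had 0 and 1 counts unstimulated and 10 and 21 after R848, a ratio by library totals of 24.4 with a counting interval of 4.06 to 994. Trf, transferrin itself, fell in both genotypes, by 1.33 on the log2 scale in WT (52 and 36 counts to 19 and 11) and by 1.84 in Padi4 KO (51 and 78 counts to 17 and 18). Lrp1, a receptor for heme bound to hemopexin, fell by 1.03 in WT (23 and 20 counts to 9 and 9) and by 1.38 in Padi4 KO (91 and 150 counts to 45 and 45). Neither response had a called difference between the genotypes (adjusted p = 0.670 for Trf and 0.835 for Lrp1). The summed stromal and endothelial markers were also lower after R848, at 219 to 251 CPM without TMM factors in unstimulated WT and 35.9 to 41.0 after R848, and at 596 to 749 and 48.4 to 51.1 in Padi4 KO. Their part in the fall of Lrp1 was not tested.

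Of 17 genes of mitochondrial iron and iron-sulfur clusters tested, 3 were called in WT (17.6%) and 2 in Padi4 KO (11.8%), beside 29.5% and 35.1% of all genes, and several had under 10 counts on average, where calls are hard to reach. Slc25a37, a mitochondrial iron importer, rose by 0.67 (SE 0.14) in WT and 1.25 (SE 0.11) in Padi4 KO. In WT, Nfs1, the cysteine desulfurase that starts cluster assembly, fell by 1.83 (8 and 9 counts to 1 and 3). That fall was not called with DESeq2 (adjusted p = 0.189), without unstimulated WT replicate 2 (adjusted p = 0.173) or without WT R848 replicate 1 (0.351). Ciapin1, of the cytosolic iron-sulfur assembly, rose by 2.19 in WT (8 and 10 counts to 34 and 37) and 0.92 in Padi4 KO (24 and 34 counts to 61 and 47).

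Between the genotypes, uptake genes had the largest share of calls higher in Padi4 KO. In unstimulated cells 13 list genes were higher and 4 lower in Padi4 KO, 30.9% of the list beside 24% of all genes, with 5 of the 9 uptake genes higher and none lower. Among genes with at least 10 counts on average these shares were 39.5% and 36.7%. After R848, 16 were higher and 3 lower, 34.5% beside 17.3% of all genes, with 6 of 9 uptake genes higher. With at least 10 counts on average the shares were 42.1% and 26.4%. The median over genes with more than 3 counts in each group was 0.14 (43 genes) and 0.22 (38 genes), beside -0.14 and -0.01 over all such genes. Tfrc was higher by 2.88 (SE 0.20) unstimulated and 3.15 (SE 0.21) after R848 on the log2 scale, with no overlap between 8 to 24 counts in WT and 192 to 288 in Padi4 KO.

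Several uptake genes had very few counts in WT. Steap3, the ferric reductase of erythroid endosomes, had 2 and 0 counts in unstimulated WT against 38 and 52 in Padi4 KO, and 0 and 0 against 26 and 29 after R848. That made it 29.8 times as high unstimulated (counting interval 8.01 to 250) and at least 10.1-fold higher after R848, against a floor of 3 counts over the WT group. The exact 95% interval of that ratio for counting error starts lower, at 7.97. Slc39a8, a metal importer, had 2 and 0 against 20 and 29 counts and then 0 and 0 against 19 and 14, which were 16.2 times as high (4.25 to 138) and at least 6.08-fold higher by that floor (exact interval from 4.68). Tfr2, transferrin receptor 2, had 1 and 0 against 20 and 47 counts and then 0 and 0 against 11 and 17, which were 44.3 times as high (7.69 to 1777) and at least 5.16-fold higher by that floor (exact interval from 3.93).

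Steap4 and Blvrb were also higher in unstimulated Padi4 KO, by 3.09 (SE 0.48) and 2.51 (SE 0.35) on the log2 scale. After R848 Glrx5, a mitochondrial glutaredoxin, had 66 and 49 counts in Padi4 KO against 2 and 1 in WT, 21.2 times as high (7.08 to 104). Nfs1 had 18 and 20 counts against 1 and 3 and a log2 fold change of 2.14, which was not called with DESeq2 (adjusted p = 0.158) or without WT R848 replicate 1 (adjusted p = 0.197). The erythroid markers were also higher in Padi4 KO, with a sum of 851 CPM in unstimulated Padi4 KO against at most 85.3 in WT, and 1002 to 1014 against at most 13.1 after R848. The gap of these markers was wider after R848. On the log2 scale the gap of Steap4 went from 3.09 to 1.34, that of Blvrb from 2.51 to 1.08 and that of Tfrc from 2.88 to 3.15. By library totals that of Glrx5 went from 6.55 to 21.2 times. Steap3, Slc39a8 and Tfr2 had 0 counts in WT after R848, so their gaps there are known only as lower limits. The part of erythroid cells in these differences was not tested. Lcn2 and Ltf were lower in Padi4 KO in both states, by 0.57 and 0.56 unstimulated and 0.41 and 0.76 after R848, and the summed markers of mature and of immature neutrophils were lower there too, at 33117 to 33158 CPM of immature markers in unstimulated Padi4 KO against 44498 to 45719 in WT.

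**Figure D5:**
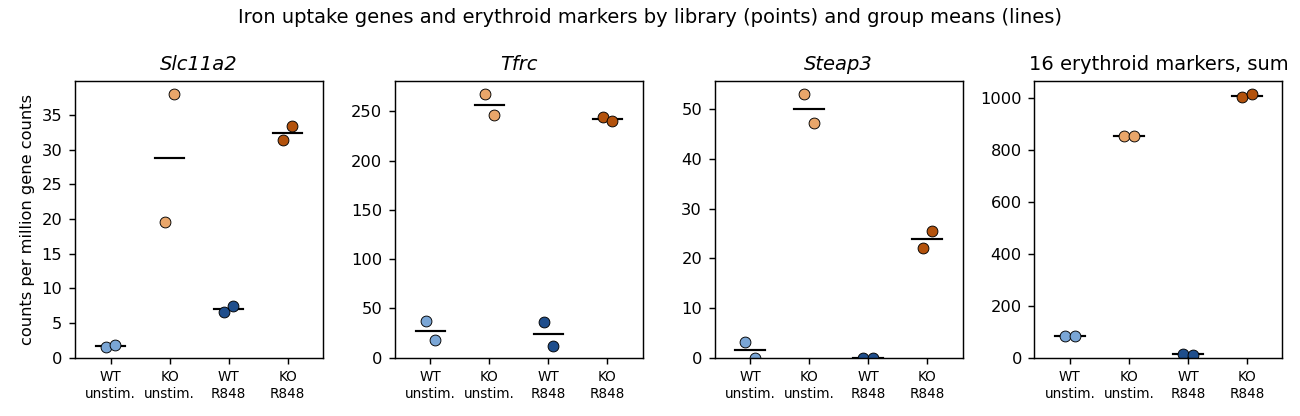
CPM without TMM factors (y axes, from 0) of Slc11a2, Tfrc and Steap3 and the sum of 16 erythroid markers in each library (points), with the mean of 2 (lines). All 4 panels are higher in the Padi4 KO libraries than in the WT libraries, unstimulated and after R848, and the erythroid sum is 851 or above in every Padi4 KO library and at most 85.3 in WT.

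Of the list, 4 genes had a called difference of the R848 response between the genotypes, 7.27% beside 4.69% of all genes. Among genes with at least 10 counts on average the shares were 10.5% and 8%. Blvrb (-1.43) and Ciapin1 (-1.26) rose less in Padi4 KO on the log2 scale, and Slc25a37 (0.58) and Hp, haptoglobin (0.59), rose more. Without WT R848 replicate 2 the value of Slc25a37 was 0.20, and without WT R848 replicate 1 that of Hp was 0.23. Of the 10 erythroid markers, 6 also had a called difference of response, higher in Padi4 KO, and their part was not tested. Ciapin1 had only 8 and 10 counts in unstimulated WT and an adjusted p of 0.0898. Slc25a37 was not called with DESeq2 (0.43, adjusted p = 0.543), RLE factors (adjusted p = 0.258) or library size alone (adjusted p = 0.118).

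Across the 8 libraries the members fell into patterns, described here by Pearson's r of log2 CPM with no test, since the libraries share 4 groups. Fth1, Ftl1 and Slc11a1 followed each other (r of 0.990 to 0.994), and Ncoa4 ran against them (r of -0.931 to -0.870). Slc11a2 ran against Slc40a1 (r = -0.837), Ncoa4 (r = -0.725) and Ireb2 (r = -0.691). Among 2913 other genes with at least 50 counts on average, the patterns most like Fth1 were those of Lipa, Sod2 and Abcc1 (r of 0.998 to 0.999). Those most like Ftl1 were Siglece, Nfkb2 and Mapkapk2, and those most like Slc11a1 were Tnip1, Pik3ap1 and Sema4d, at 0.996 or above. Ncoa4 was most like Hacd4, Clec12a and Crispld2 (0.995 to 0.996), Slc40a1 like Ccpg1 and Naa60 (0.953 and 0.946), and Ireb2 like Rgs19, Serinc3 and Preb (0.964 to 0.971).

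By group means in CPM, Fth1, Ftl1 and Slc11a1 shared the order WT after R848, Padi4 KO after R848, then the unstimulated groups. With TMM factors neighbouring groups did not overlap, but for Slc11a1 the unstimulated groups nearly met, at 151.8 in WT and 151.5 in Padi4 KO. As shares of gene counts the R848 groups of Fth1 overlapped, at 1.83% and 1.92% in WT and 1.92% and 1.87% in Padi4 KO, as did those of Ftl1. Ncoa4 ran from unstimulated WT through unstimulated Padi4 KO and WT after R848 down to Padi4 KO after R848, with TMM factors also without overlap between neighbours. By counts over library totals its R848 groups overlapped. For Aco1 each group overlapped the next, for Slc40a1 only unstimulated WT stood clear of its neighbour, and for Ireb2 the 2 WT groups overlapped.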

How the data were processed

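RNA of 8 neutrophil libraries was measured, 2 for each genotype and treatment. Paired-end reads of an Illumina MiSeq were trimmed, filtered, aligned to mm10 and counted by the authors; the submitters' processing notes name FastQC 0.11.7, cutadapt 1.16, STAR 2.5.3a and HTSeq 0.6.1p1. The deposited values are raw counts per gene symbol, without normalization. The annotation and strand setting are not given in the sources used here, so reads from overlapping opposite-strand genes cannot be told apart. In each library 87.0% to 89.5% of the listed reads were on genes; the summary lines of HTSeq were left out.

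Genes with at least 1 count in at least 2 libraries were fitted in edgeR 4.0.16 (R 4.3.3, limma 3.58.1) with TMM factors, 1 mean per group and the robust quasi-likelihood test. P-values were adjusted by Benjamini-Hochberg over 12254 genes, with calls below 0.1. The SE is the absolute log2 fold change over the square root of F. Ratios of rare genes use summed counts with exact binomial 95% intervals, which cover counting error only, as does the floor of 3 counts. The script was tested on simulated data. Alternatives were DESeq2 1.42.0, other filters and scalings, a replicate block, an adjusted p below 0.05 and each library left out. The study's methods used DESeq2, run here as an alternative. Group labels, genotypes and replicate numbers were taken from the sample labels.

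The 8 members and the gene lists were chosen with earlier results of these data known. Named from the list were the 6 called genes of largest change per comparison with a mean of at least 10 counts, plus Tfrc, Lcn2, Ltf, Hmox1, Slc25a37, Slc39a14, Steap3, Steap4 and Fbxl5. Of the genes these rules name, 2 are not reported here. Gene positions and hairpins are from GENCODE for GRCm38, the build of mm10.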

Additional observations from a re-analysis of the deposited data

Results flagged for a closer look

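Fth1 and 4 other iron genes had R848 responses that differed between Padi4 KO and WT in edgeR's quasi-likelihood test of the difference itself (adjusted p below 0.1). On the log2 scale, Padi4 KO minus WT, the difference was -0.45 for Fth1 (adjusted p = 0.000220), -1.43 for Blvrb (0.0339), -1.26 for Ciapin1 (0.0898), 0.58 for Slc25a37 (0.0394) and 0.59 for Hp (2.67e-07). Blvrb was not called without any one of 3 unstimulated libraries (adjusted p = 0.145 and 0.229 without WT replicates 1 and 2, and 0.117 without Padi4 KO replicate 1), and Hp not without WT R848 replicate 1 (0.152) or Padi4 KO R848 replicate 1 (0.111). Slc25a37 was not called without any one of 7 libraries (adjusted p = 0.121 to 0.789), and Ciapin1 not without any one of 5 (0.136 to 0.427). With 2 libraries a group, no single library could be tested for standing apart from its group.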

How the results depend on the processing

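Of 598 values of the 8 genes under the alternatives, 520 kept their direction and side of the threshold, 33 lost a call, 22 gained one and 23 changed sign; of 554 of the other iron genes, 508 kept both, 41 lost a call and 5 changed sign. The causes were not tested. Beyond the calls named above, after R848 the members called between genotypes went from 3 to 6 with RLE factors, and the other iron genes from 19 to 10 with DESeq2, as did the Padi4 KO response from 22 to 11. With each library left out, members called numbered 1 to 2 for the difference of responses, 3 to 5 after R848, 4 to 6 unstimulated, 4 to 5 for the Padi4 KO response and 4 to 5 for the WT response; the other iron genes numbered 1 to 5, 15 to 19, 14 to 20, 14 to 22 and 13 to 19.

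Signs changed where values were small. For the difference of responses, Slc11a1 was -0.058 with DESeq2 and -0.057 with RLE factors and -0.21 to 0.29 with libraries left out, Slc40a1 was -0.036, -0.033 and -0.27 to 0.12, and Aco1 was -0.53 to 0.63 with libraries left out. With library size alone, genotype changes after R848 were 0.016 for Fth1, 0.048 for Slc11a1 and 0.027 for Slc40a1, and unstimulated 0.0062 for Ftl1 and 0.022 for Slc11a1. Tfrc was -0.073 in the Padi4 KO response with library size alone, and in the WT response -0.26, -0.016 with the filterByExpr filter, and -0.83 to 0.79 with libraries left out. The WT response was -0.28 to 0.21 for Ireb2 and -0.21 to 0.073 for Slc40a1 with libraries left out.

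Over all genes tested, the percent changed was 29.5, 35.1, 24, 17.3 and 4.69 (WT response, Padi4 KO response, unstimulated, after R848, difference), 18.5, 17.3, 8.66, 8.23 and 1.02 with DESeq2, and 48.9, 53.9, 39.7, 28.8 and 8.81 with filterByExpr. The share of higher calls was 45.8% and 54.7% in the WT and Padi4 KO responses and 25.6% and 24.9% with library size alone, and 73.2% for the difference against 28% with DESeq2. With the replicate block the members called stayed at 5, 5, 7, 3 and 1 and the other iron genes were 18, 22, 16, 19 and 4. The replicate numbers do not pair the samples: deviations of same-numbered libraries correlated at -0.0122 to 0.0345 over 2919 genes. With 2 libraries a group and few counts for Slc11a2 and Aco1, small changes were not detectable at this depth.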
